A study of Drosophila melanogaster with 10 samples.

Results

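Heads of Drosophila melanogaster females were compared by the origin of their second chromosome, which came from strain Z30 on 5 of the series' 10 oligonucleotide arrays and from strain Fr on the other 5. The grouping follows the second letter of each genotype, in which M marks an Fr chromosome and Z a Z30 one, and the letters refer in turn to X, to the second chromosome and to the third. The second chromosome was from Z30 in the parental strain Z30 (arrays Z30 1 and Z30 2) and in the substitution lines MZM, MZZ and ZZM. It was from Fr in the parental strain Fr (arrays Fr 1 and Fr 2) and in the lines MMZ, ZMM and ZMZ. All 10 arrays were hybridised with RNA of heads from nonvirgin females aged 3 to 5 days, 100 to 200 heads per sample. Each line is represented by 1 array. The labels give no origin for mitochondria or for the fourth chromosome, and they name no separate cultures behind the parental replicates, so p-values cover only how far single arrays scatter, part of which may be technical.

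The second chromosome of this fly is a large autosome with the arms 2L and 2R, and it carries many of the genes for cytochrome P450 enzymes, odorant-binding proteins and intermediary metabolism. Replacing it as a whole exchanges every allele on it at once. In a chromosome substitution design the X and the third chromosome of either origin occur with either second chromosome, so signals of genes on the exchanged chromosome can be set beside those of genes elsewhere.

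Differences are given as Z30 minus Fr on the log2 scale of the signal, a linear brightness that was set to a floor of 38.9 where it was lower. They are coefficients of an additive model of the 3 origins fitted with limma over all 10 arrays, on the 8379 probe sets that passed a filter on dim signals. In that model MZM and ZMZ each carried 28.6% of the weight of their side, the other lines 21.4% and each parental array 14.3%. On Fr 1 and Z30 1 the bacterial control probe sets had a geometric mean of 651 and 538, against 1500.0 to 2179 on the other 8 arrays. The labels name no batch. A smaller batch of Fr 1 and Z30 1 and a larger one of the other 8 arrays were inferred from these signals. P-values are therefore also given with these 2 arrays against the other 8 as a block, called the batch block. Array MZM had a median rank correlation of 0.820 with the others, against 0.890 to 0.915 for the remaining 7 arrays of the larger batch. Signals of a gene are listed in the order Z30 1, Z30 2, MZM, MZZ and ZZM for the Z30 chromosome, and Fr 1, Fr 2, MMZ, ZMM and ZMZ for the Fr chromosome.

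Genes whose signals followed the origin of the second chromosome lay mostly on the second chromosome itself. All 5 arrays with the Z30 chromosome were above, or all 5 below, those with the Fr chromosome for 93 probe sets (1.11% of 8379), 55 higher (0.656%) and 38 lower (0.454%) with Z30. Without the filter 113 of 13966 separated (0.809%). Of the 2813 tested probe sets of second-chromosome genes, 61 separated in this way (2.17%), 34 higher and 27 lower. Of the 4588 on X and the third chromosome, 21 did (0.458%), 14 higher and 7 lower. By arm the counts were 35 of 1322 on 2L, 26 of 1491 on 2R, 3 of 1305 on X, 6 of 1426 on 3L, 12 of 1857 on 3R and 0 of 55 on the fourth chromosome, and the other 11 had no arm assigned. Among the 28 separated probe sets that also differed by more than 1 log2 unit (0.334% of those tested), 23 had an arm, and 22 of these lay on the second chromosome.

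**Figure D1:**
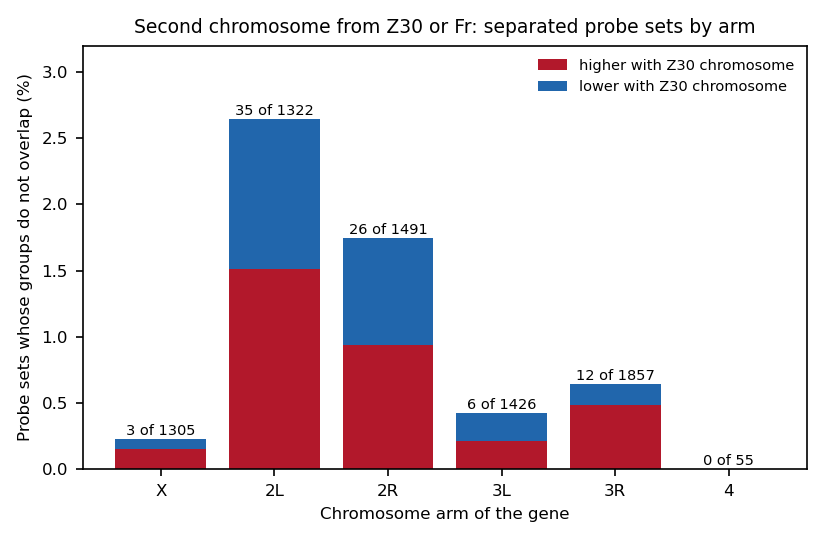
Share of tested probe sets, in percent, whose 5 arrays with the Z30 second chromosome all lay above (red) or all below (blue) the 5 with the Fr one, by chromosome arm of the gene, with the counts above the bars. The bars reach 2.65% on 2L and 1.74% on 2R, and 0.646% or less on the other arms.

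The arrays that stood apart changed the number of separated probe sets but not the order of the chromosomes. Without Fr 1 and Z30 1, 196 probe sets on the second chromosome separated (6.97%) and 92 on X and the third (2.01%), with 340 in all (4.06%). Without MZM the counts were 148 (5.26%) and 33 (0.719%), with 206 in all (2.46%), and without all 3 arrays 381 (13.5%) and 147, with 609 in all (7.27%). A smaller group separates more easily, so these counts are comparable between chromosomes and not with those from all arrays. On the second chromosome the separated probe sets were more often lower than higher with Z30 when MZM was left out (62 higher and 86 lower) and when all 3 were (167 and 214). Differences of more than 1 log2 unit, whether separated or not, were found for 79 second-chromosome probe sets (2.81%), 24 higher and 55 lower, against 43 on X and the third chromosome (0.937%) and 149 overall (1.78%). The typical difference was small on both, with a median size of 0.212 log2 units on the second chromosome and 0.183 on X and the third.

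The 4 parental arrays and the 6 lines share no array, and they were set beside each other. The contrasts are unlike, since the parents differ in all 3 chromosomes and the effect in the lines is that of the second chromosome alone. In the lines the effect of the second chromosome rests on MZZ and ZZM against MMZ and ZMM, since MZM and ZMZ have no weight in an additive fit of the 6 lines alone. Across the 2813 second-chromosome probe sets, the difference between the parents and the effect in the lines had a Pearson correlation of 0.420 (Spearman 0.303). It was 0.377 on 2L and 0.453 on 2R, and it was 0.368 with the parental arrays of the larger batch and 0.338 with Fr 1 and Z30 1. On X and the third chromosome the same correlation was -0.035, with -0.012 on X, 0.013 on 3L and -0.095 on 3R. These are descriptions across probe sets, which share arrays and are not independent replicates.

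Genes chosen because the parents differed by more than 1 log2 unit show the same contrast. On the second chromosome 155 probe sets met that condition, and 123 of them (79.4%) had an effect of the same direction in the lines. The median of the line effect divided by the parental difference was 0.384, and 46 of the 155 also exceeded 1 log2 unit in the same direction in the lines. On X and the third chromosome 247 probe sets met the condition, 117 of them (47.4%) had the same direction, the median ratio was -0.012 and 5 exceeded 1 log2 unit in the same direction. The probe sets were selected on the parental difference, which includes the X and the third chromosome, so the ratio is given as a description.

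**Figure D2:**
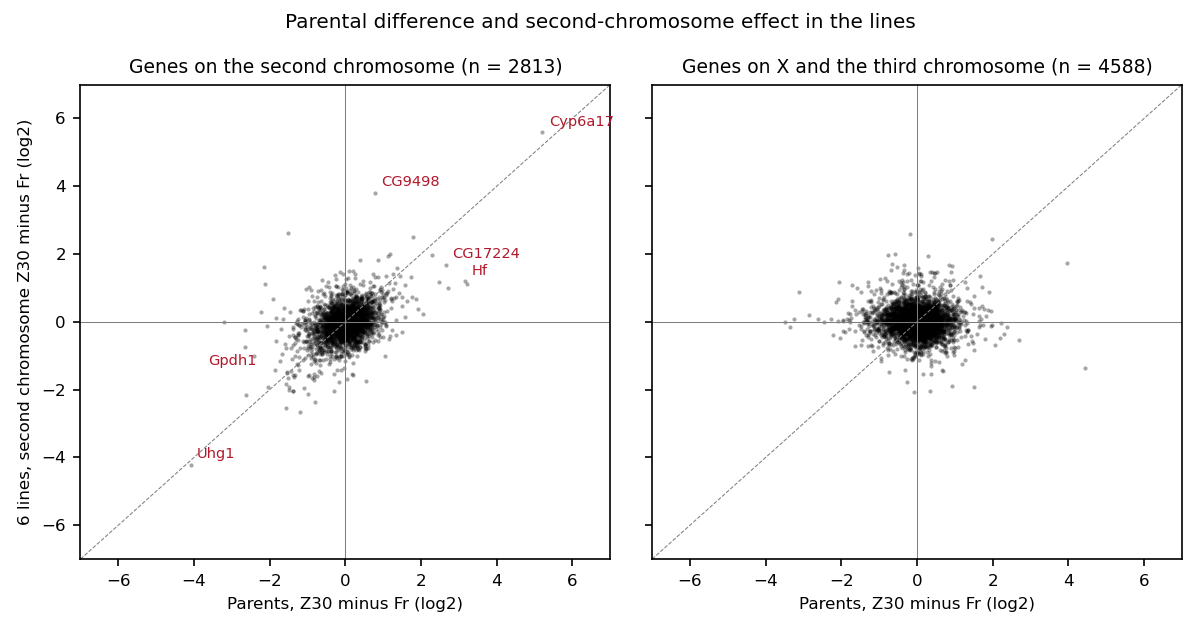
Difference between the parents (Z30 minus Fr, log2, horizontal axis) against the second-chromosome effect in the 6 lines (log2, vertical axis), 1 point per tested probe set, for genes of the second chromosome (left, n = 2813) and of X and the third chromosome (right, n = 4588), with the dashed line of equality. Points on the left stretch along the diagonal from Uhg1 to Cyp6a17 (correlation 0.420), while those on the right do not (correlation -0.035).

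Of the 8379 probe sets 3 (0.0358%) passed the threshold of 0.05 after Benjamini-Hochberg adjustment in limma, and all 3 genes lie on the second chromosome. Cyp6a17 and CG17224 rose (0.0239%) and Uhg1 fell (0.0119%) with the Z30 chromosome, and 342 probe sets (4.08%) had an unadjusted p under 0.05. Among the called genes, Cyp6a17 and Uhg1, and CG9498 named below, passed the filter on the mean signal only through the group in which they are high. Of the genes named below that separated without a call, the same holds for Cyp4e1, CG3165 and NKCC, and it may hold for other dim ones. Without the filter 1 gene, Uhg1, was called. With the batch block 13 probe sets were called (0.155%), 10 higher (0.119%) and 3 lower (0.0358%), 12 of them on the second chromosome and CG9676 on X. The blocked count rested on single arrays. It was 4 without ZMM, 5 without Fr 2, 7 without MMZ, 7 without ZZM, 11 without ZMZ, 14 without Z30 2, 27 without MZM and 28 without MZZ. Cyp6a17, CG17224, Uhg1 and Gpdh1 were called in all 8 blocked fits that left out 1 array of the larger batch, CG9498 in 7 of them (all but that without ZMM) and the other 8 genes in 1 to 4. Without the mean-variance trend the blocked fit called 5 genes, Cyp6a17, Uhg1, CG17224, CG9498 and Gpdh1. With array weights in place of the block, 38 probe sets were called (0.454%), 17 higher (0.203%) and 21 lower (0.251%), and 11 of them are among the 13.

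**Figure D3:**
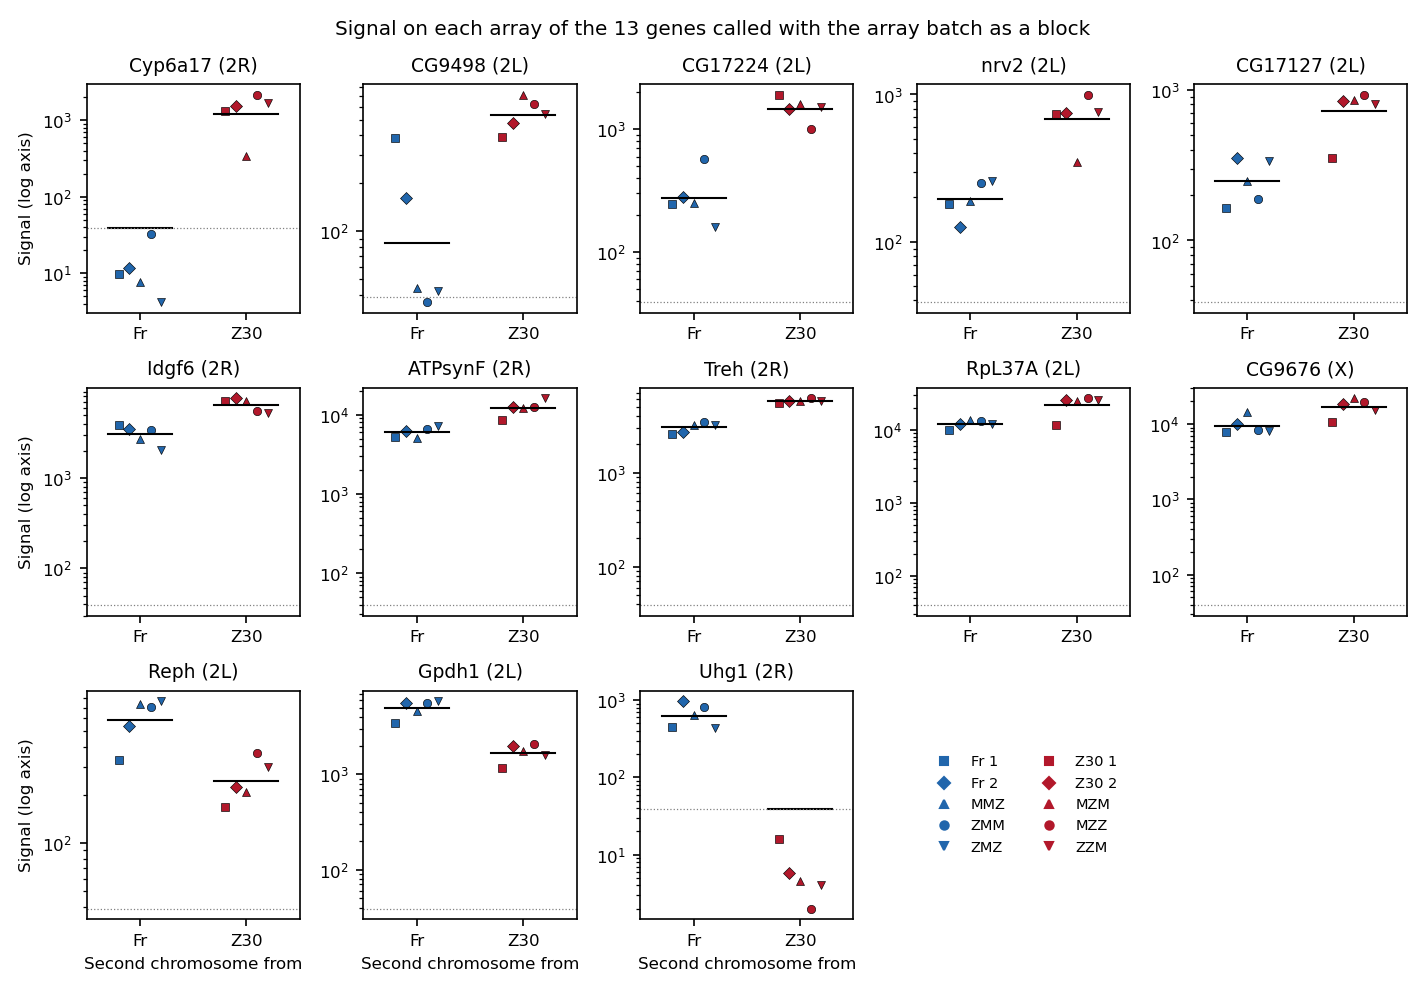
Signal (log axis) on each array of the 13 genes called with the batch block, with the Fr second chromosome in blue and the Z30 one in red, 1 symbol per array, horizontal bars at the geometric mean of the floored signals and a dotted line at the floor of 38.9. With the Fr chromosome Cyp6a17 is below the floor on every array, with the Z30 chromosome Uhg1 is, while RpL37A, CG17127, CG9676 and Reph overlap between the groups.

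Cytochrome P450 enzymes oxidise foreign compounds, hormones and fatty acids. Cyp6a17 on 2R, a gene with one of the largest differences in this comparison, encodes one of them. It is known in flies for a role in temperature preference and in the response to pyrethroid insecticides. Cyp6a17 had signals of 1325, 1555, 340.3, 2140.4 and 1676 with the Z30 chromosome and 9.8, 11.9, 7.8, 32.4 and 4.2 with the Fr one. The groups were far apart on every array, with MZM the lowest of the Z30 group and every Fr array below the floor. With the floor applied, the geometric means of the groups differed by at least 30.9-fold (signals without the floor 1407 ± 666 against 13.2 ± 11.1, SD, n = 5 each). The fitted difference for Cyp6a17 was 4.78 log2 units, or 27.5-fold (adjusted p = 0.00131, blocked adjusted p = 0.00122, limma). Its fitted difference depends on the floor and was 5.71 with the floor at the 10th percentile and 4.19 with a pseudocount of 50 in place of the floor.

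Cyp6a2, also on 2R and also known from insecticide resistance, had the opposite order. Its signals were 1742, 1560.4, 2478.5, 659 and 1293 with the Z30 chromosome and 5206, 4068, 3687, 3739 and 3941 with the Fr chromosome. The groups did not overlap, but the difference of -1.47 ± 0.30 (2.78-fold lower with Z30) missed the threshold (adjusted p = 0.233, blocked adjusted p = 0.0985, limma). The 2 other separated P450 genes, Cyp4ac2 on 2L and Cyp4e1 on 2R, had higher signals with Z30. For Cyp4ac2 the 2 Z30 parental arrays had 1371 and 1204 and the lines MZM, MZZ and ZZM 288, 455 and 300.3, against 123 to 225 with the Fr chromosome (difference 1.56 ± 0.44, adjusted p = 0.608, limma). The parental strain was thus well above the lines that carry the same second chromosome. Cyp4e1 had 184 to 366 against 63.6 to 169 (difference 1.31 ± 0.29, adjusted p = 0.332, limma).

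Among 58 tested P450 genes, 38 lie on the second chromosome. There 1 was called higher and none lower with the block, beside 0.119% and 0.0358% of all probe sets, and 3 separated higher and 1 lower. By more than 1 log2 unit 3 were higher and 4 lower. The lowest was Cyp6g1 on 2R, named here after its values were seen (difference -1.52, blocked adjusted p = 0.350, limma). Its groups overlapped, and it was called with array weights (adjusted p = 0.0319, limma). The 20 P450 genes on other chromosomes had no call, no separated member and no difference beyond 1 log2 unit, with differences of -0.23 to 0.47. The median difference was -0.09 on the second chromosome and 0.06 elsewhere, beside -0.004 over 6831 genes tested, of which 47 separated higher and 32 lower. The 10 tested Cyp6a genes all lie on the second chromosome. Apart from Cyp6a17 and Cyp6a2 their differences ran from -0.91 (Cyp6a23) to 0.46 (Cyp6a20), with none called. Cyp6a23, a close relative of Cyp6a17 and its neighbour on 2R, had 333, 186, 780, 214 and 203 with the Z30 chromosome and 771, 693, 616, 567 and 510.3 with the Fr one. All arrays with the Z30 chromosome but MZM lay below all arrays with the Fr chromosome (adjusted p = 0.956, limma). Whether the probe set of one reads RNA of the other was not tested.

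Uhg1 on 2R is a host gene of small nucleolar RNAs, which lie in its introns and guide the chemical modification of ribosomal RNA. Its signals were 15.9, 5.8, 4.5, 2.0 and 4.0 with the Z30 chromosome and 450.1, 965, 645, 804 and 433 with the Fr one. Every array with the Z30 chromosome was below the floor and every array with the Fr chromosome far above it. With the floor applied, the geometric means of the groups differed by at least 16.1-fold. The fitted difference for Uhg1 was -3.96 log2 units, or 15.6-fold lower with Z30 (adjusted p = 9.8e-04, blocked adjusted p = 0.00043, limma). Its fitted difference depends on the floor and was -5.08 with the floor at the 10th percentile and -3.57 with a pseudocount of 50 in place of the floor. Probe sequences were not used here, so for Uhg1, Cyp6a17 and all other genes a lower transcript level and a weaker hybridisation of one strain's RNA cannot be told apart.

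Of 21 tested genes of sugar and glycerol phosphate metabolism, 1 was called in each direction with the block and none without it, and both separated. Over all probe sets 0.119% were called higher and 0.0358% lower with the block, and 1.11% separated. Treh on 2R encodes trehalase, which splits the blood sugar trehalose into glucose. Its signals were 5481, 5687, 5804, 6170.3 and 5694 with the Z30 chromosome and 2580.3, 2719.5, 3185, 3433 and 3237 with the Fr one. The spread within each group was small beside the gap between them (5767 ± 254 against 3031 ± 363, SD, n = 5 each), 1.88-fold (adjusted p = 0.136, blocked adjusted p = 0.0247, limma).

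Gpdh1 on 2L encodes glycerol-3-phosphate dehydrogenase, which links glycolysis with lipid synthesis and with the transfer of reducing power to mitochondria. Its signals were 1165, 1977, 1739, 2092 and 1583 with the Z30 chromosome and 3451, 5585, 4588, 5562 and 5827 with the Fr one. Within each group the array of the smaller batch was the lowest, and the groups did not overlap. Gpdh1 was 2.96-fold lower with Z30 (adjusted p = 0.0667, blocked adjusted p = 0.0020, limma). The difference was -1.34, -1.81, -1.13 and -1.94 in the 4 matched backgrounds described below.

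Of the 21 tested genes of this list, 14 lie on the second chromosome, and their differences ran from -1.57 to 0.91 with a median of 0.08. Besides Gpdh1, the members that differed by more than 1 log2 unit were Pepck1 and Pepck2 on 2R, named here after their values were seen. They encode phosphoenolpyruvate carboxykinases, enzymes of glucose synthesis, and had differences of -1.07 ± 0.58 and -1.12 ± 0.51 (SE) with an adjusted p of 0.9999 each in limma. The 7 members on other chromosomes had differences of -0.39 to 0.33.

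ATPsynF on 2R encodes a subunit of the mitochondrial ATP synthase. It had 8584, 12591, 12196, 12387 and 16204 with the Z30 chromosome and 5183, 6271, 5013, 6514 and 7143 with the Fr one. The lowest array with the Z30 chromosome, Z30 1, was above the highest with the Fr chromosome, and the difference was 2.04-fold (adjusted p = 0.169, blocked adjusted p = 0.0137, limma). ATPsynF was the one call with the block among 15 tested ATP synthase genes, beside 0.155% of all probe sets, and none was called without it. The other members of the list had differences of -0.34 to 0.24. The other 2 members on the second chromosome, blw and ATPsynGL, had -0.02 and -0.08.

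The sodium pump exports sodium from cells and keeps the ion gradients of neurons and glia, and nrv1, nrv2 and nrv3 on 2L encode its beta subunits. The glial subunit gene nrv2 had 735, 747, 348, 994 and 756 with the Z30 chromosome and 181, 126, 190.1, 252 and 258 with the Fr one. MZM was the lowest of its group, yet it too lay above all 5 arrays with the Fr chromosome. The difference was 3.09-fold (adjusted p = 0.136, blocked adjusted p = 0.0472, limma). Its neighbour nrv1 had a difference of -0.08 ± 0.18, and nrv3, the neuronal subunit gene, of -0.81 ± 0.45. The second separated glial gene, wrapper on 2R, which encodes an immunoglobulin-domain surface protein of glia, had 459 to 1015 against 237 to 445 (difference 1.07 ± 0.22, adjusted p = 0.233, limma). Over 17 tested glial genes the median difference was 0.05, or 0.16 in the lines and 0.007 without MZM. With the block 1 was called, beside 0.155% of all probe sets, and none was called without it. A positive difference was found for 12 of the 17, beside 49.4% of all genes tested. The summed signal of 18 glial genes was 33332 to 51095 with the Z30 chromosome and 30756 to 46558 with the Fr one. In whole heads fewer cells of a type and less RNA per cell cannot be told apart.

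CG17224 on 2L, a predicted uridine phosphorylase of pyrimidine salvage, had 1910.4, 1461, 1615, 1000.5 and 1515 with the Z30 chromosome and 248, 281, 253, 578 and 159 with the Fr one. The groups were well separated, with ZMM the highest of the Fr group. The rise was 5.42-fold (adjusted p = 0.0132, blocked adjusted p = 0.00972, limma). Without the block the call was lost when Fr 2, Z30 2, MZM or MZZ was left out, with an adjusted p of up to 0.121 in limma. The other 9 tested genes of pyrimidine breakdown and synthesis were not called. Among them r-l on 3R, which makes uridine monophosphate, separated with a difference of 0.85 ± 0.40, and the remaining 8 had differences of -0.03 to 0.21.

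CG9498 on 2L belongs to a family of kinase-like proteins (EcKL) related to enzymes that phosphorylate ecdysteroid hormones. It had 390.4, 473, 715, 624 and 540.2 with the Z30 chromosome and 383, 162, 44.1, 36.0 and 42.1 with the Fr one. CG9498 passed the filter on the mean signal only through the arrays with the Z30 chromosome. The 3 lines with the Fr chromosome were close to the floor, whereas the Fr parent was not, and Fr 1 lay just below Z30 1. With those lines at or near the floor the size of the difference depends on how low signals are treated. It was 3.03 log2 units in the fit (adjusted p = 0.101, blocked adjusted p = 0.0137, limma) and 2.27 with a pseudocount of 50 in place of the floor, and the parents differed by 0.79. No other of the 21 tested family members was called, and the next gene along 2L of the same family, CG9497, had a difference of 0.27 ± 0.42. The 17 members on other chromosomes had differences of -0.22 to 0.51.

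Idgf6 on 2R encodes a chitinase-like protein that is secreted and acts as a growth factor. It had 7070.3, 7649, 7104, 5562 and 5172 with the Z30 chromosome and 3869, 3523, 2706, 3384 and 2064 with the Fr one. The groups did not overlap, and the difference was 2.22-fold (adjusted p = 0.162, blocked adjusted p = 0.0472, limma). The 5 other Idgf genes had differences of -0.68 (Idgf2) to 0.46 (Idgf5), and none was called. For Idgf1, Idgf3 and Idgf5 the sign depended on the arrays and settings used.

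The other 4 genes called with the block had overlapping groups. RpL37A on 2L, a protein of the large ribosomal subunit, had 11690, 25375, 24669, 27363 and 25772 with the Z30 chromosome and 9845, 12144, 13498, 13170.1 and 12120 with the Fr one. Z30 1 was within the Fr range, and the other 4 arrays of its group were well above it (1.87-fold, adjusted p = 0.608, blocked adjusted p = 0.0246, limma). RpL37A was the one call with the block among 27 tested ribosomal protein genes, beside 0.155% of all probe sets, and none was called without it. The other members of the list had differences of -0.20 to 0.33. The median of the list was 0.07 with 23 positive, but without MZM it was -0.02, and in the lines 15 were positive. CG17127 on 2L showed the same pattern, with 350.4 on Z30 1 and 805 to 925 on the other 4, against 165 to 353 (2.98-fold, adjusted p = 0.286, blocked adjusted p = 0.0246, limma). Reph on 2L was lower with Z30, at 168, 222, 207, 364 and 298 against 330.0, 537, 741, 708 and 766 (2.54-fold, adjusted p = 0.370, blocked adjusted p = 0.0472, limma). Here Fr 1 was below MZZ, and all other arrays with the Fr chromosome were above every array with the Z30 one. CG9676, the one called gene on X, had 10640 to 22152 against 7888 to 14304 (1.84-fold, adjusted p = 0.496, blocked adjusted p = 0.0247, limma).

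Several genes separated fully without passing the test. With higher signals on the Z30 chromosome these included Hf on 2L, at 559 to 1723 against 116 to 350.3, where the Z30 parental arrays had 1438 and 1723 and the lines at most 789. Tep3 on 2L, a thioester-containing protein of the immune response, had 250 to 367 against 77.1 to 175, and CG3165 on 2L had 155 to 391 against 53.5 to 137. The adjusted p of these 3 genes in limma was 0.166, 0.501 and 0.886, with the block 0.0809, 0.111 and 0.260. Also higher was inaD on 2R, the scaffold of the photoreceptor signalling complex, at 4844 to 8429 against 2837 to 4836 (difference 0.67 ± 0.22, adjusted p = 0.886, limma). The separated gene outside the second chromosome with the largest difference, NKCC on 3R, a sodium, potassium and chloride cotransporter, had 150.2 to 223 against 60.8 to 143. A second probe set of NKCC, with signals of 618 to 1570, had a difference of 0.21 and did not separate.

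Among genes with lower signals on the Z30 chromosome, Sr-CI on 2L, a scavenger receptor of macrophage-like blood cells, had 223, 299, 82.8, 72.7 and 214 against 562, 463, 431, 685 and 306. Even the highest array of the Z30 group was just under the lowest of the Fr group (difference -1.73 ± 0.38, adjusted p = 0.286, limma). CG9021 on 2L had 55.2 to 284 against 317 to 565 (-1.78 ± 0.44), CG3036 on 2L 863 to 1886 against 2078 to 5710 (-1.51 ± 0.29) and CG9344 on 2R 172 to 451 against 619 to 1151 (-1.53 ± 0.32). Their adjusted p in limma was 0.498, 0.174 and 0.233. RanBPM on 2R, a scaffold protein, had 880 to 1432 against 2048 to 2757, with a blocked adjusted p of 0.0540 in limma. DCTN3-p24 on 2R, a subunit of the dynactin motor complex, had 66.4 to 196 against 198 to 355, and chif on 2L, a partner of a kinase that starts DNA replication, 345 to 599 against 679 to 1096. These 7 genes all lie on the second chromosome, and none was called with or without the block.

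Each difference was also read in 4 matched backgrounds, which hold the X and the third chromosome constant and share no array. These were MZM against the mean of Fr 1 and Fr 2, ZZM against ZMM, MZZ against MMZ, and the mean of Z30 1 and Z30 2 against ZMZ. With 1 or 2 arrays on a side they have no replicate check of their own. For genes whose 2 groups separate, the direction in each background is fixed by that separation, so only the sizes are described. The 4 genes called with the block whose groups overlap, RpL37A, CG17127, Reph and CG9676, had the same direction in all 4. The fitted difference is a weighted mean of these 4 differences, so for genes picked by that fit the shared direction is no separate evidence. For Uhg1 and Cyp6a17 one side is wholly below the floor, so their differences in the backgrounds are bounds and are not ranked. CG17224 ran from 1.39 to 3.39, Treh from 0.73 to 1.13 and nrv2 from 1.21 to 2.39. Among the genes not called, Cyp4ac2 ran from 0.57 to 3.38, Sr-CI from -0.24 to -2.62 and CG3036 from -0.38 to -2.16. In the background of the Z30 parent against ZMZ, Cyp4ac2 had its largest difference and Sr-CI and CG3036 had their smallest.

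**Figure D4:**
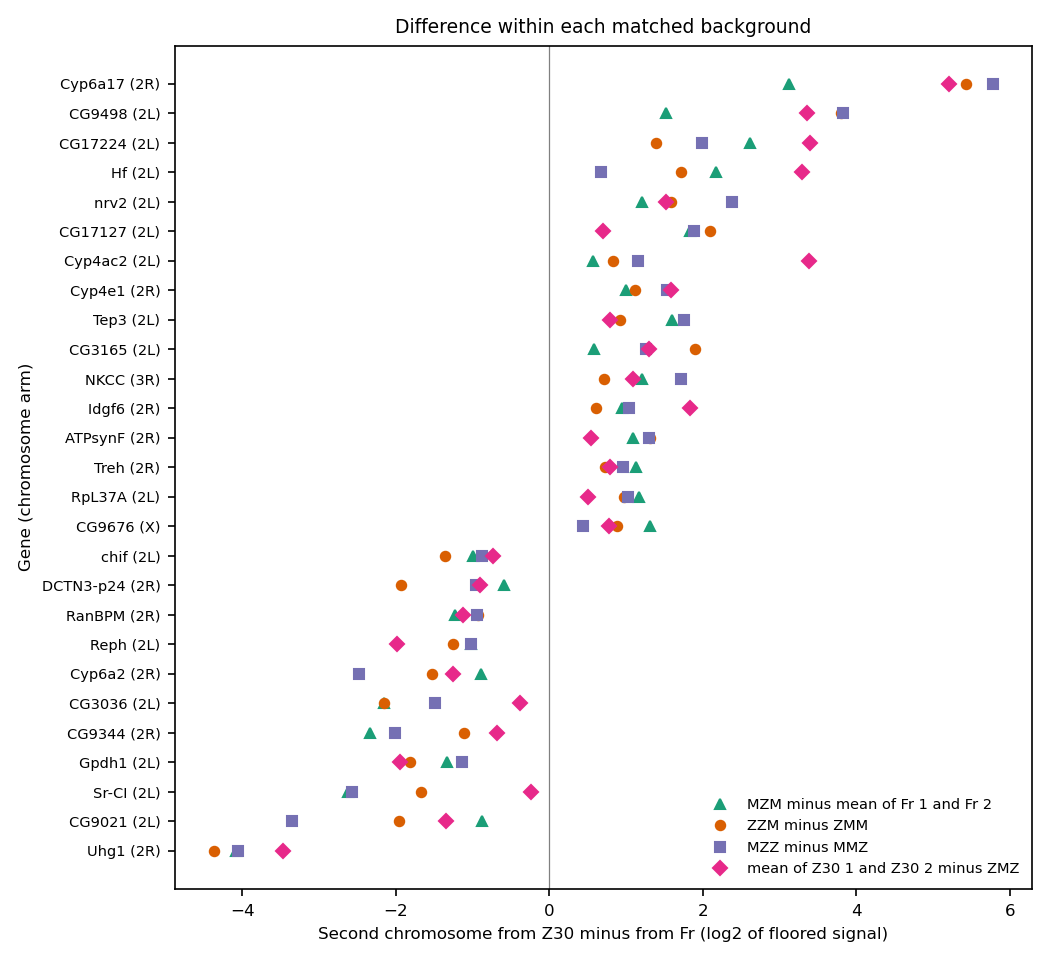
Difference of each named gene that was called with the batch block or that is among the largest separated differences (rows, chromosome arm in brackets) within the 4 matched backgrounds (symbols), as second chromosome from Z30 minus from Fr on the log2 scale of the floored signal (horizontal axis). The direction of genes with separated groups follows from how they were chosen, the values of Uhg1 and Cyp6a17 are bounds set by the floor, and Cyp4ac2 ranges from 0.57 to 3.38.

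Over all second-chromosome probe sets, 467 of 2813 (16.6%) had the same direction in all 4 backgrounds, and 54 (1.92%) differed by more than 0.5 log2 units in the same direction in each. On X and the third chromosome 528 of 4588 (11.5%) had the same direction in all 4, and 11 (0.240%) exceeded 0.5 log2 units in each. The correlations between backgrounds across second-chromosome probe sets were -0.008 to 0.375 over the 6 pairs of backgrounds, with a median of 0.135. The highest joined ZZM against ZMM with MZZ against MMZ. On X and the third chromosome they were -0.153 to 0.134 with a median of -0.017. With the 4 backgrounds as a factor in place of the additive terms, limma called 3 probe sets (0.0358%), 2 higher (0.0239%) and 1 lower (0.0119%). With the batch block added it called 15 (0.179%), 9 higher (0.107%) and 6 lower (0.0716%). Of the 13 genes above 12 were among them, and Idgf6 was not (adjusted p = 0.0582 in that fit, limma). RanBPM was called in that fit (adjusted p = 0.0296, limma).

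The test of whether the effect of the second chromosome depends on the origin of the X or the third chromosome called 0 of 8379 probe sets in limma, with 312 (3.72%) at an unadjusted p under 0.05. The genes with the smallest unadjusted p were CG3857 and CG14419 on X, Ndc1 and Obp99a on 3R and Obp28a on 2L, all with an adjusted p of 0.9997 in limma. CG14419 had differences of 0.18, 3.31, 0.03 and 2.69 in the 4 backgrounds and Ndc1 had -1.12, 2.12, -2.12 and 2.28. Obp99a, an odorant-binding protein gene, had -2.40, -0.54, 0.15 and 1.20. CG14419 thus differed mainly where the X came from Z30, while Ndc1 and Obp99a change sign between backgrounds, each of which rests on 2 or 3 arrays.

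Measured neighbours of the called genes separated at about the share of all second-chromosome probe sets. For each of the 13, the 5 nearest measured genes on either side along the arm were taken from the Release 6 annotation. Of the 130 neighbours 3 separated (2.31%), beside 2.17% of all second-chromosome probe sets. The 130 hold 1 probe set per gene and include the 10 around CG9676 on X, where 0.230% of all tested probe sets separated. None of those 10 separated. The median size of the difference was 0.226 over the 130 and 0.212 over all second-chromosome probe sets. All 3 stand near Gpdh1, namely CG9021 (-1.78 ± 0.44), CG11034 (1.18 ± 0.32) and CG9044 (-0.67 ± 0.19), and CG11034 has the opposite direction. Among the 10 measured neighbours of Cyp6a17, which include Cyp6a22, Cyp6a23, Cyp6a9, Cyp6a20, Cyp6a21 and Cyp6a8, none separated, with differences of -0.91 to 0.46. Around Uhg1 the neighbours had differences of -0.84 to 0.53, around CG17224 -0.27 to 0.38 and around nrv2 -0.71 to 0.42, and none separated.

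**Figure D5:**
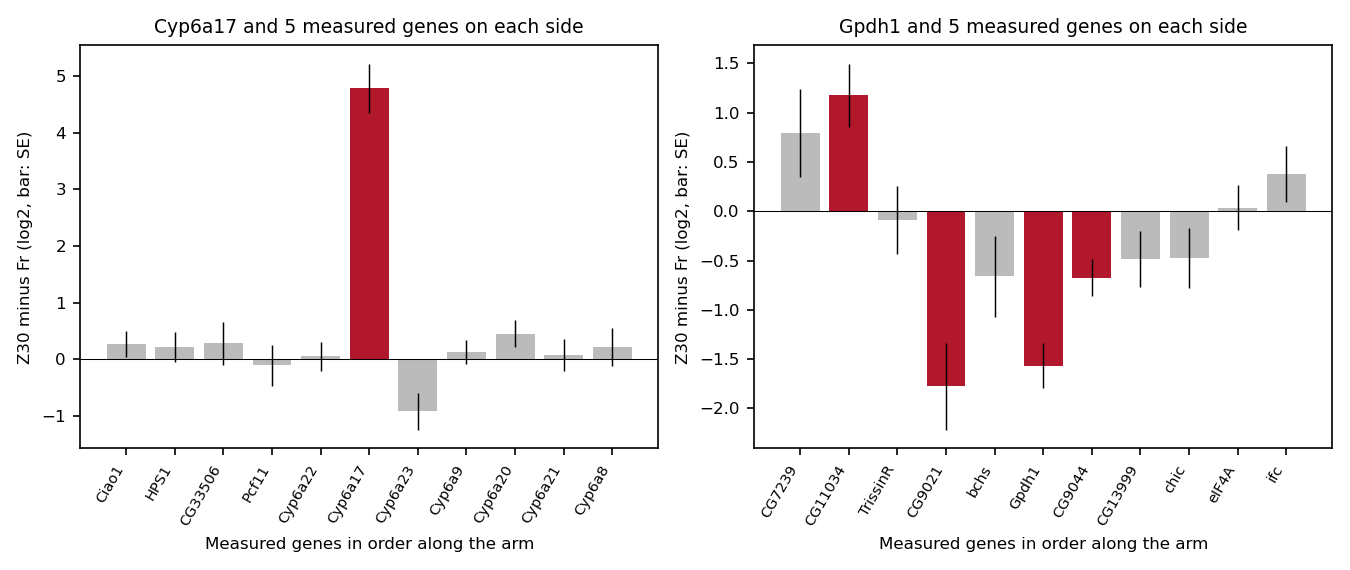
Difference with the second chromosome from Z30 (log2, bars, with the standard error of the fit as lines) for Cyp6a17 (left) and Gpdh1 (right) and the 5 measured genes on each side of them in their order along the arm, with red for genes whose 2 groups of 5 arrays do not overlap. Cyp6a17, whose bar depends on the floor, stands beside neighbours of -0.91 to 0.46, and around Gpdh1 3 neighbours separate in both directions.

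Other gene groups of the head held few or no called members. None was called among 26 glutathione S-transferases, which conjugate foreign compounds with glutathione (median difference 0.16, or -0.01 in the lines), 17 odorant-binding proteins (0.04), 39 cuticle proteins (-0.01), 5 antimicrobial peptides (0.32, or -0.17 in the lines) and 9 genes of cuticular hydrocarbon synthesis (0.05), and none of these lists had a separated member. Without MZM the median of the antimicrobial peptides was -0.02. The abundant odorant-binding protein gene Obp56d on 2R had 11436, 13350.1, 24552, 20434 and 19338 with the Z30 chromosome and 9991, 13145, 11880, 10531 and 11045 with the Fr one. Its 3 lines and Z30 2 were above all arrays with the Fr chromosome, and Z30 1 was not (difference 0.72 ± 0.20, adjusted p = 0.608, limma). Among the cuticle genes, Cpr11B on X had a difference of -1.23 ± 0.22 with overlapping groups (adjusted p = 0.137, blocked adjusted p = 0.0540, limma).

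Markers of particular cells were examined because the make-up of the heads could move with the groups. All 13 tested genes of synaptic vesicle release had a negative difference (median -0.39) and so did 15 of 16 muscle genes (median -0.41). In the lines alone, where the effect rests on MZZ, ZZM, MMZ and ZMM, the medians were however 0.13 and 0.10. Without MZM they were -0.20 for the synaptic genes and -0.40 for the muscle genes. No gene of either list was called or separated. The summed signal of 15 synaptic genes was 8389, 15129, 7664, 19891 and 20366 with the Z30 chromosome and 7602, 18620, 18157, 18780 and 23460.0 with the Fr one. It was lowest on Fr 1, Z30 1 and MZM, the arrays that stood apart, and 15129 to 23460.0 on the others. That of 20 muscle genes was 31789 to 109693 against 35917 to 135744. For 16 tested hemocyte genes the median was -0.21 (-0.50 in the lines), with none called and 1 separated (Sr-CI), beside 1.11% of all probe sets. The summed signal of 21 hemocyte genes was 31506 to 43783 against 35064 to 43427. PPO1 on 2R, a phenoloxidase of the crystal cells among them, had 369 to 812 against 559 to 2222 (difference -1.16 ± 0.39, adjusted p = 0.861, limma).

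Photoreceptor and fat body genes had medians of 0.06 (17 genes) and -0.01 (9 genes). Without MZM these medians were -0.04 and -0.13. Their summed signals were 90082 to 163479 and 127155 to 238623 with the Z30 chromosome and 86267 to 154377 and 116579 to 236379 with the Fr one. Of markers of other tissues, 4 ovary and eggshell genes, 4 testis and male accessory gland genes and 14 midgut genes passed the filter, with medians of 0.01, -0.08 and -0.08 and no call. Their summed signals over 19, 23 and 30 genes were 2336 to 4208, 1177 to 2442 and 5330 to 9326 with the Z30 chromosome and 2013 to 4562, 1255 to 1978 and 5542 to 9495 with the Fr one. Of these tissue markers, 1 ovary, 4 testis and 3 midgut genes, and 1 gene each of the fat body (Fbp2), muscle (TpnC4) and hemocyte (Sr-CII) lists, were at the floor on all 10 arrays. The ranges of both groups overlapped for every one of these lists, and the part of cell make-up in the differences of single genes was not tested.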

How the data were processed

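Signals of 14010 probe sets on 10 arrays were used as deposited. The authors deposited 1 intensity value per probe set and array on a linear scale. The values show a common scaling (trimmed means of 499.4 to 499.6) and no log transformation, and the software is not given in the sources used here. Groups and chromosome origins came from the labels.

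After 44 control probe sets were left out, 13966 remained. Signals under the pooled 20th percentile (38.9) were set to it and log2 was taken. A mean log2 above the 40th percentile was required, and 8379 probe sets met it. The origin of the second chromosome was tested in limma 3.58.1 (R 4.3.3, lmFit and eBayes, trend on) with the first origin and the third as covariates (6 residual degrees of freedom), Benjamini-Hochberg adjustment and a threshold of 0.05. The script was tested on simulated data. Symbols came from the platform annotation, brought up to date by Entrez identifier from the Release 6 gene table (12394 of the 12443 probe sets with 1 gene, with 327 having several and 1196 none), which also gave the arms. In the lists and among neighbours a gene is represented by its probe set with the highest mean; among the largest separated differences it is the probe set that separated, which for NKCC is the dimmer of 2.

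The grouping, the 24 gene lists and the tests were chosen with earlier results of these data known. Cyclophilin Cyp1 and bor were removed from 2 lists after the files were read. Named are the genes called with or without the batch block, the 10 largest separated differences in each direction, the Cyp6a, snoRNA host, sodium pump and Idgf genes, up to 4 members of each other list with an unadjusted p under 0.05, and the 5 genes with the smallest interaction p. Cyp6g1, Pepck1, Pepck2, blw, ATPsynGL, CG9497, r-l, CG11034, CG9044 and the neighbours of Cyp6a17 are named outside that rule. The replicate numbers of the parents coincide with the inferred array batch for number 1. With only 2 pairs, the deviations of same-numbered arrays had a correlation of 0.642, and no origin of the pairing is labelled. The number of arrays limits the precision.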

Additional observations from a re-analysis of the deposited data

Results flagged for a closer look

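In 9 of the 120 groups of 5 arrays examined for named genes, 1 array lay far from the other 4 by Dixon's gap ratio on the log2 scale, a criterion that flags about 1 group in 20 by chance. With the Z30 chromosome, Z30 1 was low for RpL37A (11690, others 24669 to 27363) and CG17127 (350.4, others 805 to 925), and MZM was low for Cyp6a17 (340.3, others 1325 to 2140.4) and nrv2 (348, others 735 to 994). Z30 2 was low for NKCC (150.2, others 200.3 to 223). With the Fr chromosome, Fr 1 was high for Cyp6a2 (5206, others 3687 to 4068) and Idgf3 (4413, others 2944 to 3273), and low for nrv3 (2806, others 6827 to 8589) and Glt (2791, others 3733 to 3927). Of the 9, 8 concern Fr 1, Z30 1 or MZM, the arrays that stood apart.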

How the results depend on the processing

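The count of 3 calls stayed at 3 with the replicate number as a block (replicate block, the labels' number 1 or 2), the 4 backgrounds as a factor, no variance trend, scaling to the 75th percentile, a floor at the 10th percentile and a pseudocount of 50. It became 13 with the array batch as a block, 15 with the backgrounds and the batch together, 6 with the second chromosome alone in the model, 7 on the 8 larger-batch arrays, 7 after quantile normalization, 38 with array weights, whose estimation stopped before it converged, 1 without the filter, 1 with the filter at the 60th percentile and 0 in the 6 lines alone (342 at an unadjusted p under 0.05, 2 residual degrees of freedom). Leaving out single arrays gave 2 to 6 calls. Of the 38 calls with weights, 17 were higher, 30 lay on the second chromosome and 11 were among the 13. Chosen after seeing the data were the blocked fits without the trend (5) and without single arrays (4 to 28, with 14 without Z30 2 and 27 without MZM), and the counts of separated probe sets without Fr 1 and Z30 1 (340), without MZM (206) and without all 3 (609), against 93. The interaction had 0 calls in the planned fits but 3 without the filter, and it was not run for the 6 lines or for the second chromosome alone. In blocked fits without MZM, MZZ or ZZM it had 24, 129 and 246 calls. No gene called with or without the batch block changed direction under any setting run, while 11 named genes that were not called did under at least 1. The causes of these shifts were not tested.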

Other observations

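The 55 tested probe sets of the fourth chromosome, whose origin is not labelled, had a median difference of -0.31 log2 units with the second chromosome from Z30, with none separated and none called. The median over all tested probe sets was -0.02.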
